A study of Mus musculus with 4 samples.

Results

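The MAP kinase phosphatases of the dual-specificity family were followed in murine dendritic cells that had been cultured from marrow, with and without silencing of the nuclear receptor NR4A3 and with and without bacterial lipopolysaccharide (LPS). The 9 genes, listed by symbol, were Dusp1, Dusp2, Dusp4, Dusp5, Dusp6, Dusp7, Dusp10, Dusp14 and Dusp16, out of 19938 genes that the arrays could name. Each of the 9 had 1 probe set that carried its symbol alone.

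The cells had been kept for 10 days in 20 ng/mL GM-CSF, which drives marrow precursors towards dendritic cells, before an siRNA was electroporated into them. Cells given the siRNA against NR4A3 and then 100 ng/mL LPS, cells given control siRNA and LPS, unstimulated cells given the NR4A3 siRNA and unstimulated cells given control siRNA were each measured on 1 Affymetrix Mouse Gene 1.0 ST array. LPS followed the siRNA by 24 hours and the harvest followed LPS by 24 hours. All 4 groups were electroporated, the siRNA lowers its target rather than deleting it, and the labels give the mice as BALB/c in one place and C57BL/6 in another. As each group has 1 array, differences between groups come without a test or an error.

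MAP kinases (ERK, JNK and p38) are switched on when both a threonine and a tyrosine in their activation loop are phosphorylated, and dual-specificity phosphatases switch them off by removing both phosphates. LPS, sensed by TLR4, activates all 3 kinase branches in dendritic cells and macrophages, and several of these phosphatases are themselves induced by the kinases, so that they act as feedback brakes. Dusp1 (MKP-1), Dusp2 (PAC-1), Dusp4 (MKP-2) and Dusp5 are nuclear enzymes. Dusp6 (MKP-3) and Dusp7 (MKP-X) are cytoplasmic and prefer ERK, Dusp10 (MKP-5) and Dusp16 (MKP-7) prefer JNK and p38, and Dusp14 (MKP-6) is a small atypical member without the kinase-binding domain of the others. Mice without Dusp1 overproduce inflammatory cytokines after LPS.

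The windows just before the transcript starts of Dusp1, Dusp5 and Dusp16 are shown because these 3 genes had lower values with NR4A3 siRNA in both states and because their windows held a motif of a signal-activated factor. Dusp14 also had lower values in both states, by a log2 difference of -1.46 with LPS and -0.12 without. Its window held no match to any motif searched and is not shown. Each is 250 bases long, reads 5′ to 3′ on the gene's strand and was taken from RefSeq (GRCm38.p6). The window of Dusp1 is chr17:26508473-26508722 on the minus strand, that of Dusp5 is chr19:53528895-53529144 on the plus strand and that of Dusp16 is chr6:134792629-134792878 on the minus strand. Capitals mark the cyclic AMP response element TGACGTCA or its core TGACG, which the whole element contains on either strand, and the CArG box of the serum response factor.
Dusp1: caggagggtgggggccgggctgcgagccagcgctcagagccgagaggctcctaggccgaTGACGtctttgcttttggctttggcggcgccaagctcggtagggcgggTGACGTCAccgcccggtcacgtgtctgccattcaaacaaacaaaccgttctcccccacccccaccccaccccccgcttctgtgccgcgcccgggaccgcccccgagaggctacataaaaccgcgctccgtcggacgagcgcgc
Dusp5: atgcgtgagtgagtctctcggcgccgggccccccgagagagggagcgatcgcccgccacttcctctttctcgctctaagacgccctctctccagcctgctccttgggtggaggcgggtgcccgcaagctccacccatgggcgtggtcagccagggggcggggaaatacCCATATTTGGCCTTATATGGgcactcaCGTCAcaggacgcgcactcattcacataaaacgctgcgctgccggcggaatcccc
Dusp16: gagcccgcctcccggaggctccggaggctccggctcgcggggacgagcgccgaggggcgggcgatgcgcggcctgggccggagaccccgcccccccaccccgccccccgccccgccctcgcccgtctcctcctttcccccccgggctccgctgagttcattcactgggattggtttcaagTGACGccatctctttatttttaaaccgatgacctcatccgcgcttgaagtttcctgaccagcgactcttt
Dusp1 held 1 whole cyclic AMP response element from base -143 to -136 before the start and a further core from -191 to -187. Dusp5 held 2 adjoining CArG boxes, from -82 to -73 and from -72 to -63, and 1 core on the opposite strand from -55 to -51. Dusp16 held 1 core from -70 to -66. Of the 9 genes, 8 matched a window, all but Dusp4. The core was found in 3 of these 8 windows and in 17.8% of all 32841 windows, the whole element in 1 of 8 and in 1.55%, and the CArG box in 1 of 8 and in 1.47%. The response element of the NR4A receptors, AAAGGTCA, was in 0 of the 8 windows and in 1.34% of all. The AP-1 site TGANTCA (6.75% of all windows), the NF-kB site (7.25%) and the interferon-stimulated response element (2.98%) were also in 0 of the 8. Both strands were searched. RefSeq's range of Dusp16 begins upstream of its window, as do those of Dusp14 and Dusp7, so other transcripts of these genes start elsewhere. A match describes these letters only.

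**Figure D1:**
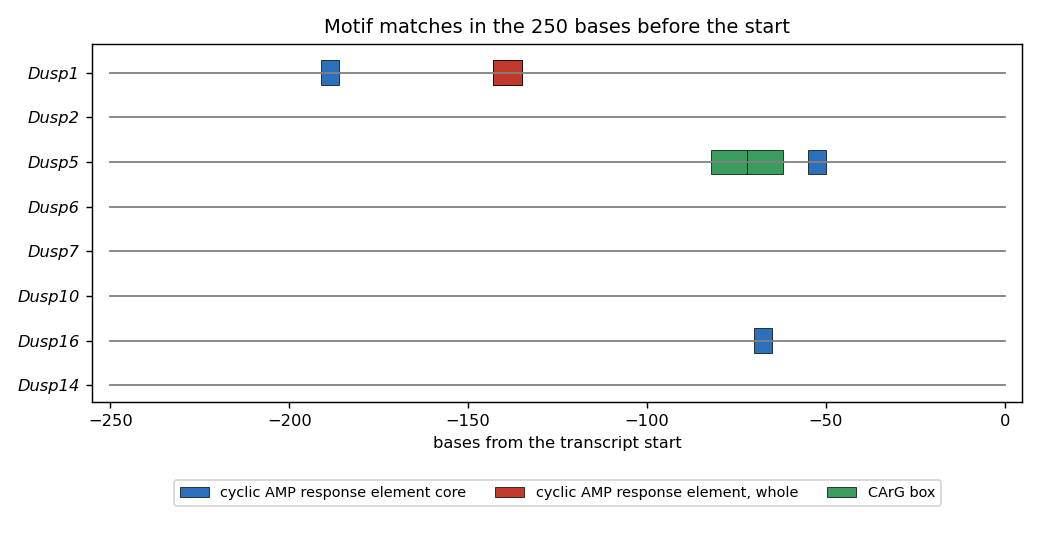
Motif matches in the 250 bases before the start of 8 phosphatase genes, drawn to scale with 0 at the transcript start. Boxes mark the whole cyclic AMP response element, its core and the CArG box. Matches lie in Dusp1, Dusp5 and Dusp16, and the other 5 windows hold no match to any motif searched.

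Values are log2 expression, and differences are NR4A3 siRNA minus control siRNA or LPS minus unstimulated. A gene was counted as higher or lower at a difference of at least 1.5-fold if either array compared was at 6.66 or more, the median of the named genes and the filter on dim signals used here. Each percentage of all genes is taken over the genes past this filter. Counts out of the 9 phosphatases, or out of the measured genes of a list, include genes that did not pass. The targeted gene Nr4a3 stood at 9.39 with its siRNA and 11.77 with control siRNA under LPS, and at 7.15 with its siRNA and 11.21 with control siRNA without LPS. The size of the difference between the siRNAs had a 95th percentile of 0.72 with LPS and 0.65 without over all genes past the filter, and the LPS difference had one of 1.30 with NR4A3 siRNA and 1.37 with control siRNA. Of 12 dendritic cell markers, 10 were at or above the filter on all arrays, from Zbtb46, between 6.82 and 7.46, to Cd74, between 13.38 and 13.47. Flt3 stayed below the filter on every array. Cd209a was at 5.81 with NR4A3 siRNA and 5.63 with control siRNA under LPS, both below the filter, and at 10.87 with NR4A3 siRNA and 8.90 with control siRNA without LPS. Ccr7, a receptor that guides mature dendritic cells to lymph nodes, ranged between 9.46 and 13.38. Of 12 macrophage markers, 9 were at or above the filter on all arrays as well, so the arrays held both kinds of marker. Of 10 granulocyte markers 9 stayed below the filter on all arrays, as did 5 of 6 B cell, 6 of 7 T cell and 5 of 6 NK cell markers.

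Silencing of NR4A3 went with lower levels of a subset of the phosphatases in LPS-treated cells. Dusp5 was 2.97-fold lower, Dusp14 2.75-fold lower and Dusp16 2.24-fold lower, while the others differed by less than 1.5-fold. These 3 of 9 genes compare with 4.73% of all genes that were lower by the same rule, and 0 of 9 were higher, against 3.73% of all genes. The 9 genes were chosen with earlier results of these data known. Shares set beside those of all genes, here and below, are therefore descriptions and not a test. Without LPS, Dusp5 was 2.17-fold lower and Dusp16 1.96-fold lower with NR4A3 siRNA. That is 2 of 9 genes lower, against 4.69% of all genes, and 0 of 9 higher, against 1.62%. In each comparison 8 of the 9 genes passed the filter, and Dusp2 did not. The array with control siRNA and LPS also serves the LPS comparison below, so the values of the 2 comparisons are not independent.

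Dusp5, the nuclear phosphatase that is specific for ERK, had the widest gap between the siRNAs. Under LPS it stood at 9.59 with NR4A3 siRNA and 11.16 with control siRNA, a difference of -1.57, the 46th lowest among 10210 genes. Without LPS it stood at 9.23 with NR4A3 siRNA and 10.35 with control siRNA, a difference of -1.12, the 136th lowest among 10257. Both arrays with NR4A3 siRNA lay below both arrays with control siRNA, so that LPS-treated cells with NR4A3 siRNA held less Dusp5 signal than unstimulated cells with control siRNA.

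Dusp16, which prefers JNK and p38, was lower by similar amounts in both states. It stood at 9.39 with NR4A3 siRNA and 10.55 with control siRNA under LPS, and at 8.16 with NR4A3 siRNA and 9.13 with control siRNA without LPS. The difference was -1.16 with LPS (112th lowest) and -0.97 without (191st lowest). Here the array with NR4A3 siRNA and LPS lay 0.26 above the unstimulated array with control siRNA, so that the siRNA groups overlapped.

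Dusp14 differed between the siRNAs in one state. Under LPS it stood at 7.02 with NR4A3 siRNA and 8.48 with control siRNA, a difference of -1.46, the 58th lowest. Without LPS it stood at 6.68 with NR4A3 siRNA and 6.81 with control siRNA, both close to the filter, and the difference was -0.12. A single array, that of control siRNA with LPS, stood apart from the other 3.

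Dusp1, the nuclear phosphatase best known as a brake on p38 and JNK, was lower with NR4A3 siRNA in both states but short of the fold threshold. It stood at 11.62 with NR4A3 siRNA and 12.20 with control siRNA under LPS, a 1.49-fold difference just short of the limit, and at 10.49 with NR4A3 siRNA and 10.88 with control siRNA without LPS, a difference of -0.39. After cyclic loess between the arrays the first of these was -0.63, and Dusp1 then counted as lower.

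The remaining 5 genes kept close to their control values. Dusp4 was at 8.64 with NR4A3 siRNA and 8.57 with control siRNA under LPS, and at 6.84 with NR4A3 siRNA and 6.72 with control siRNA without it. Dusp6 differed by 0.25 with LPS and by less than 0.01 without, and Dusp7 by 0.24 with LPS and 0.30 without. Dusp10 differed by -0.19 with LPS and 0.02 without. Dusp2, an enzyme of activated immune cells, lay between 5.98 and 6.39, below the filter on all 4 arrays, so its differences of 0.02 and 0.28 are not read. The median difference of the 9 genes was -0.19 with LPS and 0.00 without, and over the 8 past the filter it was -0.38 with LPS and -0.06 without, beside 0.05 with LPS and 0.02 without over all genes past the filter.

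**Figure D2:**
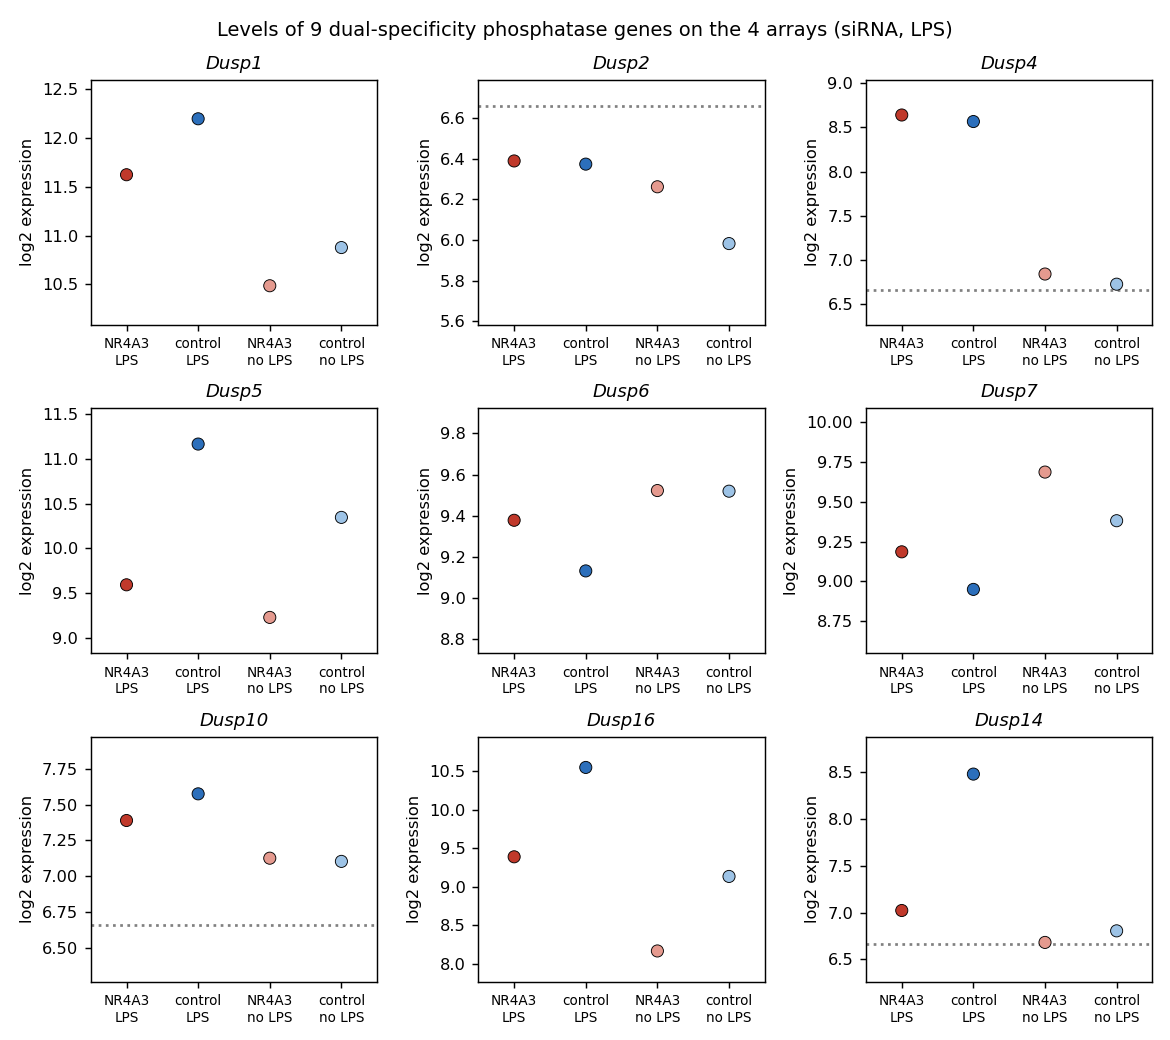
Log2 expression (y axis, own scale in each panel and not starting at 0) of the 9 phosphatase genes on the 4 arrays, 1 point an array, named by siRNA and LPS. The dotted line, where in range, is the filter at 6.66. Dusp5 and Dusp16 are lower with NR4A3 siRNA in both states, Dusp14 is high on the array with control siRNA and LPS alone, and Dusp4 follows LPS with either siRNA.

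**Figure D3:**
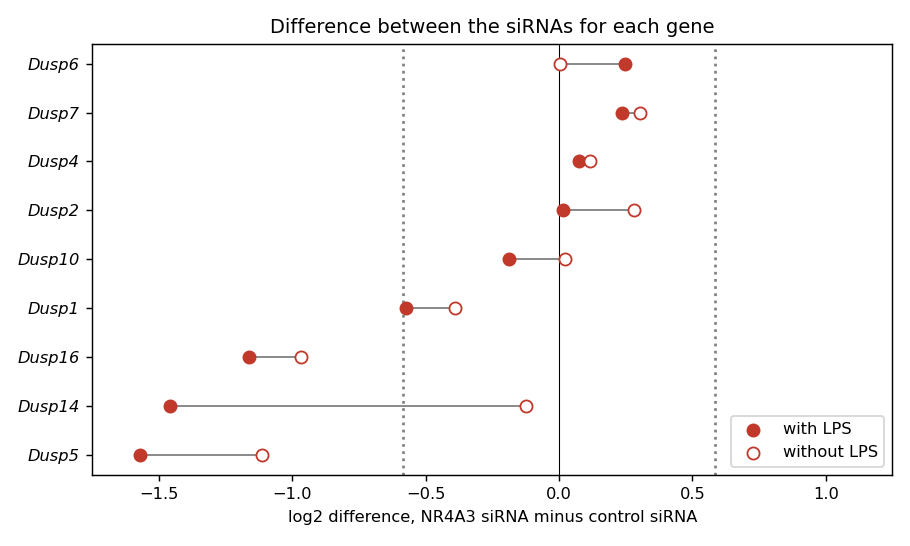
Log2 difference between NR4A3 siRNA and control siRNA for each gene, with LPS (filled) and without (open), joined by a line. Dotted lines mark 1.5-fold. Dusp5 and Dusp16 lie beyond the lower line in both states, Dusp14 with LPS alone, at -1.46 against -0.12.

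Markers of cell types differed between the siRNAs as well. The summed level of the 12 dendritic cell markers was 15.18 with NR4A3 siRNA and 15.41 with control siRNA under LPS, and 15.19 with NR4A3 siRNA and 15.42 with control siRNA without it (log2 of summed signal). That of the 12 macrophage markers was 15.19 with NR4A3 siRNA and 14.89 with control siRNA under LPS, and 14.99 with NR4A3 siRNA and 14.75 with control siRNA without it. Such a sum leans on the brightest genes. Ccr7, 1 of the dendritic cell markers, stood at 12.64 with NR4A3 siRNA and 13.38 with control siRNA under LPS. Without LPS, Ccr7 stood at 9.46 with NR4A3 siRNA and 12.99 with control siRNA. On the unlogged scale this gap was wider than that of the whole dendritic cell sum. With NR4A3 siRNA, 0 of 12 dendritic cell markers were higher and 3 lower under LPS, and 1, Cd209a, was higher and 3 lower without it. Of 12 macrophage markers, 5 were higher and 1 lower under LPS, and 3 (C1qa, C1qb and C1qc) were higher and 0 lower without it. Over all genes past the filter, 3.73% were higher and 4.73% lower under LPS, and 1.62% higher and 4.69% lower without it. Under LPS, the largest gaps in the summed level lay in the 5 monocyte markers, at 12.51 with NR4A3 siRNA and 13.10 with control siRNA, the 5 erythroid and platelet markers, at 12.94 with NR4A3 siRNA and 12.32 with control siRNA, and the 6 NK cell markers, at 8.26 with NR4A3 siRNA and 8.98 with control siRNA. Without LPS these sums were 14.24, 13.56 and 7.95 with NR4A3 siRNA, and 14.27, 13.21 and 8.43 with control siRNA, in the same order. Of the erythroid and platelet markers 3 of 5, and of the NK cell markers 5 of 6, stayed below the filter on all arrays. Klrd1 was the NK cell marker past it, at 6.42 with NR4A3 siRNA and 8.24 with control siRNA under LPS. The part of these markers in the phosphatase differences was not tested, and in such bulk RNA fewer cells of a type and less RNA per cell cannot be told apart.

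LPS went with higher levels of 5 of these genes in cells with control siRNA. Dusp4 was 3.59-fold higher, Dusp14 3.19-fold, Dusp16 2.67-fold, Dusp1 2.49-fold and Dusp5 1.76-fold. These 5 of 9 compare with 10.2% of all genes that were higher by the same rule, and 0 of 9 were lower, against 9.44%. With NR4A3 siRNA, Dusp4 was 3.49-fold higher with LPS, Dusp16 2.34-fold and Dusp1 2.20-fold. That is 3 of 9 higher, against 10.3% of all genes, and 0 of 9 lower, against 6.88%. Monocyte markers, of which 5 were measured, differed with LPS too, at a summed level of 12.51 with LPS and 14.24 without in cells with NR4A3 siRNA, and of 13.10 with LPS and 14.27 without in cells with control siRNA. Of these 5, 1 was higher and 3 lower with either siRNA, and the higher one, Plac8, stood at 7.33 with LPS and 5.47 without in cells with NR4A3 siRNA, and at 8.59 with LPS and 5.59 without in cells with control siRNA. The 6 plasmacytoid dendritic cell markers summed to 11.79 with LPS and 10.23 without in cells with NR4A3 siRNA, and to 11.84 with LPS and 10.33 without in cells with control siRNA. Of these 6, 3 stayed below the filter on all arrays, among them Siglech. Bst2, the brightest with LPS, stood at 11.30 with LPS and 8.59 without in cells with NR4A3 siRNA. In cells with control siRNA it stood at 11.22 with LPS and 8.89 without. Of 12 macrophage markers, 4 were higher and 4 lower with LPS in cells with NR4A3 siRNA, and 3 were higher and 5 lower in cells with control siRNA. Their part was not tested.

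Dusp4, a nuclear phosphatase of ERK and JNK, followed LPS alone. It stood at 8.64 with LPS and 6.84 without in cells with NR4A3 siRNA, and at 8.57 with LPS and 6.72 without in cells with control siRNA, so that the LPS difference was 1.80 with NR4A3 siRNA and 1.85 with control siRNA. Both LPS arrays lay well above both unstimulated arrays, and within each state the siRNAs were 0.07 and 0.12 apart.

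Dusp1 and Dusp16 had LPS differences of 1.14 and 1.22 with NR4A3 siRNA, and of 1.32 and 1.42 with control siRNA. For both genes, each LPS array lay above both unstimulated arrays, and within each state the array with control siRNA was the higher one. Their 4 arrays therefore took the same order. Dusp5 differed by 0.36 between LPS and no LPS with NR4A3 siRNA and by 0.82 with control siRNA. Its arrays with control siRNA lay above those with NR4A3 siRNA whether or not LPS was present.

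The cytoplasmic ERK phosphatases lay on the other side from Dusp1, Dusp4 and Dusp5. Dusp6 stood at 9.38 with LPS and 9.52 without in cells with NR4A3 siRNA, and at 9.13 with LPS and 9.52 without in cells with control siRNA. Dusp7 stood at 9.19 with LPS and 9.68 without in cells with NR4A3 siRNA, and at 8.95 with LPS and 9.38 without in cells with control siRNA. For both genes the LPS arrays were the lower ones with either siRNA, by less than 1.5-fold. Dusp10 was slightly higher with LPS, by 0.26 with NR4A3 siRNA and 0.47 with control siRNA.

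**Figure D4:**
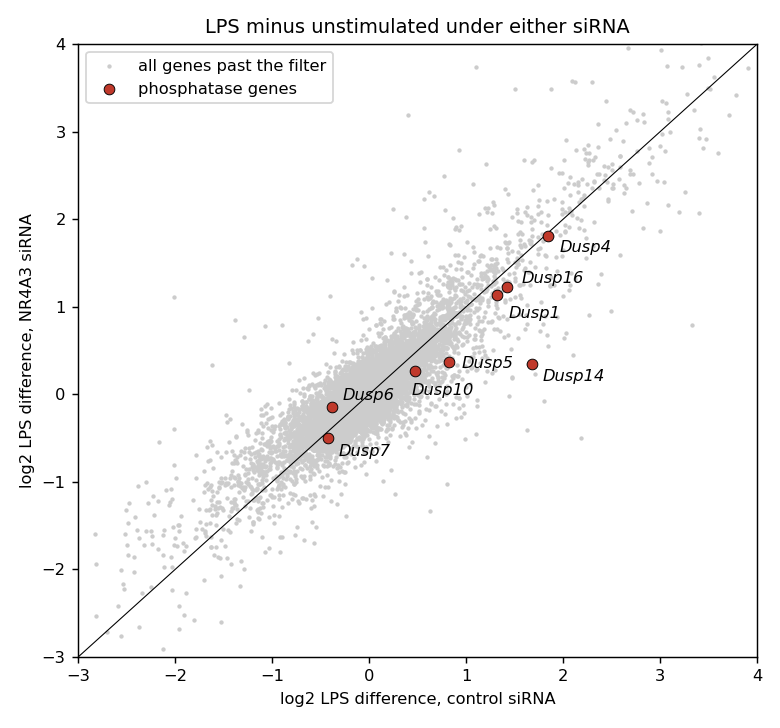
Log2 difference between LPS and no LPS with NR4A3 siRNA (y axis) and with control siRNA (x axis) for the 8 phosphatase genes past the filter (red) and all genes past it (grey, those within the axes). The line marks equal differences. Dusp4, Dusp1 and Dusp16 lie near it, and Dusp14 lies below it, at 0.34 with NR4A3 siRNA against 1.68 with control siRNA.

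The LPS difference of Dusp14 was the one that varied most with the siRNA. It was 1.27-fold with NR4A3 siRNA and 3.19-fold with control siRNA, a difference of LPS effects of -1.33, the 20th lowest among 10592 genes. By the 1.5-fold rule 1 of 9 genes was lower in this measure, against 2.12% of all genes, and 0 were higher, against 2.90%. For Dusp5 it was -0.45, the 363rd lowest, and for the other 7 genes it lay between -0.26 and 0.24. It uses all 4 arrays, so it has no test, and for Dusp14 it shares the array with control siRNA and LPS with each comparison in which this gene was counted.

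The average effects of LPS and of the siRNA over the 4 arrays were tested in an additive fit (limma, 1 residual degree of freedom, p-values adjusted by the Benjamini-Hochberg method over 10592 genes). Its residual holds both array noise and any difference of the LPS effects. Separate cultures are not stated in the labels, so the p-values may rest on technical spread alone. With NR4A3 siRNA, Dusp5 fell by 1.34 (SE 0.13, adjusted p = 0.0114, limma) and Dusp16 by 1.07 (SE 0.10, adjusted p = 0.0110, limma) on the log2 scale, each lower in 2 of 2 states. These 2 of the 9 genes compare with 3.58% of all genes that fell, and 0 of 9 rose, against 1.98%. After cyclic loess 50 of all genes rose and 217 fell, in place of 210 and 379. Dusp1 had an average of -0.48 that missed the threshold (adjusted p = 0.0576, limma), and it passed under 4 of 7 alternative settings (range over them 0.0368 to 0.0938). Dusp14 had an average of -0.79 (SE 0.29, adjusted p = 0.164, limma), its standard error being the widest of the 8 genes tested.

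With LPS, 6 of the 9 genes rose in the same fit, against 15.6% of all genes, and 1 of 9 fell, against 14.4%. Dusp4 rose by 1.82 (SE 0.10, adjusted p = 0.000154, limma), Dusp16 by 1.32 (SE 0.10, adjusted p = 0.00058, limma) and Dusp1 by 1.23 (SE 0.10, adjusted p = 0.000705, limma). Dusp5 (0.59, adjusted p = 0.0237), Dusp10 (0.37, adjusted p = 0.0472) and Dusp14 (1.01, adjusted p = 0.0498) rose by the same limma fit nearer its threshold, and without the filter on dim genes all 3 missed it. Dusp10 and Dusp14 also missed it after repeated quantile normalization, and Dusp14 after cyclic loess. The average of Dusp14 joins unlike LPS differences, 0.34 with NR4A3 siRNA and 1.68 with control siRNA. Dusp7 fell by 0.46 (adjusted p = 0.0176, limma), lower with either siRNA. Dusp6 had an average of -0.27 that missed the threshold (adjusted p = 0.122, limma).

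The genes whose pattern was most like that of a phosphatase were found by the distance between log2 values centred on each gene's own mean, over 4 arrays, for the 5 phosphatases that ranged over at least 1 log2 unit. Genes below the filter or without an official symbol were left out of this search. So were gene models, RIKEN clones, small RNAs and some other classes of gene. Nearest to Dusp16 were Irf8, a transcription factor of dendritic cell development, at a distance of 0.06, Abtb2 at 0.10 and the TNF family ligand gene Cd70 at 0.11. Irf8 stood at 12.18 with NR4A3 siRNA and 13.38 with control siRNA under LPS, and at 11.01 with NR4A3 siRNA and 12.01 with control siRNA without it. Nearest to Dusp4 were H2-T24 (0.08), Ms4a6d (0.13) and the chemokine gene Cxcl2 (0.14), and nearest to Dusp1 were Dennd3 (0.12), Cnn3 (0.18) and Fam89a (0.18). Dusp5 and Dusp14 had no neighbour as close among the genes searched. Scin (0.21), Hsf2 (0.22) and Tmem150c (0.24) were nearest to Dusp5, and Ago3 (0.22), Prrg4 (0.23) and Ikzf4 (0.28) to Dusp14. Among the phosphatases themselves, Dusp2 and Dusp10 were closest at 0.26, though Dusp2 lay below the filter. Dusp6 and Dusp7 were 0.29 apart, Dusp2 and Dusp6 0.58, and Dusp1 and Dusp16 0.59. Dusp2, Dusp6, Dusp7 and Dusp10 each ranged over less than 1 log2 unit, and genes that vary little lie close by this measure. With 4 arrays such a distance is a description only.

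The kinases and other regulators of the pathway were compared from 9 lists, of which 126 of 134 entries were measured. Under LPS, 4 of 100 genes past the filter were lower with NR4A3 siRNA (4.73% of all genes) and 6 higher (3.73%), and without LPS 6 of 101 were lower (4.69%) and 1 higher (1.62%). With LPS, 5 of 101 were higher (10.3% of all genes) and 10 lower (6.88%) in cells with NR4A3 siRNA, and 8 of 101 were higher (10.2%) and 12 lower (9.44%) in cells with control siRNA. In the additive fit over 102 of these genes, 3 rose (1.98% of all genes) and 6 fell (3.58%) with NR4A3 siRNA, and 10 rose (15.6%) and 16 fell (14.4%) with LPS. The share of list genes that fell with LPS in the fit was thus near that over all genes, while the share that rose was below it. These shares were not tested.

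Among the kinases, 0 of 12 measured MAP kinase genes, 7 of them past the filter, were counted in either LPS comparison. Over all genes 10.3% were higher and 6.88% lower with NR4A3 siRNA, and 10.2% higher and 9.44% lower with control siRNA. With so few genes, the count of 0 is not read as a difference from these shares. In the fit 1 of the MAP kinase genes fell with LPS (14.4% of all genes). It was Mapk14 (p38 alpha), by 0.36 (adjusted p = 0.0461, limma), which was named after its value was seen. Map2k1, which encodes the ERK kinase MEK1, rose with LPS by 0.70 (adjusted p = 0.0066, limma), as did Mapkapk2, the kinase downstream of p38, by 0.73 (adjusted p = 0.00374, limma). Of the 8 measured MAPK-activated kinases that was the 1 that rose (15.6% of all genes), and 2 fell (14.4%). The 2 were Mknk1, by 0.67 (adjusted p = 0.00529, limma), and Rps6ka3, by 0.50 (adjusted p = 0.0230, limma). Of 20 MAP kinase kinase kinases, Map3k5 rose with LPS by 0.63 (adjusted p = 0.0119, limma) and Map3k20 fell by 0.55 (adjusted p = 0.0452, limma). Map3k8 had the largest LPS difference of this list with control siRNA, 0.88, against 0.22 with NR4A3 siRNA. Its average of 0.55 missed the threshold of the fit. The difference of LPS effects counted as lower for Map3k8, at -0.66, and as higher for Map3k20, at 0.59. Mapk6, an atypical MAP kinase, rose with NR4A3 siRNA by 0.57 (adjusted p = 0.0418, limma). The kinase Rps6ka5 fell with it by 0.68 (adjusted p = 0.0472, limma), and 1 of the 20 MAP kinase kinase kinases fell as well (3.58% of all genes).

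Among 28 other phosphatases of these families, Dusp3 (VHR), which acts on ERK and JNK, moved opposite to the inducible ones. It stood at 9.67 with NR4A3 siRNA and 9.08 with control siRNA under LPS, and at 10.77 with NR4A3 siRNA and 10.25 with control siRNA without it. It fell with LPS by 1.13 (adjusted p = 0.000759, limma) and rose with NR4A3 siRNA by 0.56 (adjusted p = 0.0373, limma). Dusp28 rose with LPS by 1.01 (adjusted p = 0.0052, limma), and the cofilin phosphatase gene Ssh1 fell with NR4A3 siRNA by 0.71 (adjusted p = 0.0266, limma). Dusp3 was not alone in falling with LPS. Of the 28 genes, 22 of them past the filter, 3 fell with LPS in the fit (14.4% of all genes) and 2 rose (15.6%). Ssh2 was another that fell, by 0.94.

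Of the inhibitors upstream of ERK, Spred1 rose with LPS (1.07 with NR4A3 siRNA, 1.13 with control siRNA, adjusted p = 0.000823, limma), and the Ras GTPase-activating protein gene Rasa3 fell by 1.12 (adjusted p = 0.000802, limma). With NR4A3 siRNA 1 of the 13 genes of this list rose (1.98% of all genes) and 1 fell (3.58%). Rasa3 rose by 0.57 (adjusted p = 0.0357, limma), and its relative Rasa2 fell by 0.79 (adjusted p = 0.0181, limma). Of 15 genes known as ERK targets, 4 fell with LPS (14.4% of all genes) and 1 rose (15.6%) in the fit. Emp1 fell by 2.52 (adjusted p = 9.2e-05, limma) and Myc by 1.72 (adjusted p = 0.000278, limma). Of 8 regulators of AU-rich mRNAs, 2 fell with NR4A3 siRNA in the fit (3.58% of all genes) and 0 rose (1.98%). Zfp36, which encodes tristetraprolin, a substrate of the p38-activated kinase MK2, fell by 0.65 (adjusted p = 0.0269, limma). Its relative Zfp36l1 fell by 0.93 (adjusted p = 0.0384, limma). The relative Zfp36l2 lay the other way, 0.60 higher with NR4A3 siRNA under LPS and 0.12 higher without, and its average of 0.36 missed the threshold (adjusted p = 0.176, limma).

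**Figure D5:**
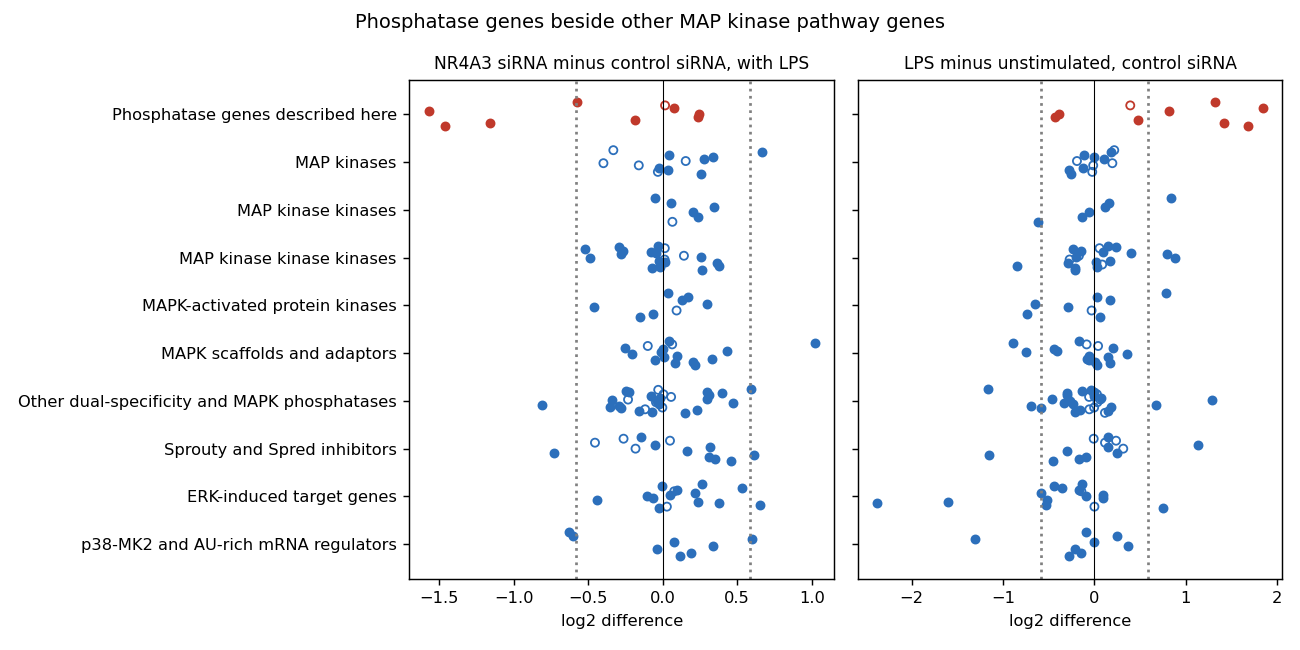
Log2 differences of single genes (points) for the phosphatases described here (red) and 9 lists of MAP kinase pathway genes (blue), between the siRNAs under LPS (left) and for LPS minus unstimulated in cells given control siRNA (right). Open points lie below the filter and dotted lines mark 1.5-fold. Dusp5, Dusp14 and Dusp16 lie left of all listed genes in the left panel, the lowest of which is Ssh1 at -0.81.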

How the data were processed

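The authors deposited log2 expression values from RMA and quantile normalization, per the labels. Affymetrix Expression Console 1.1 is named in the submitters' processing notes. Genome build: not given in the sources used here. Quantile normalization would hide a shift of most genes in 1 direction.

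Of 28856 probe sets, 21789 had 1 symbol in the platform annotation. A gene was taken at its brightest such probe set. Differences were taken between arrays. The additive fit used limma 3.58.1 in R 4.3.3 on genes with at least 1 array at the filter, with a threshold of 0.05 on the adjusted p. It was tested on simulated data in which LPS shifts were equal with either siRNA. Effects of the siRNA, and LPS effects that vary with it, were not simulated. Precision is limited by the number of arrays.

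The genes, lists and motifs were chosen with earlier results of these data known. Named genes are the 9 phosphatases, Nr4a3, up to 3 counted genes of each list and comparison with the largest differences (fitted values are given for some), and the 3 nearest genes of each phosphatase ranging over 1 log2 unit. Marker genes are named as checks. Alternatives were median centring, repeated quantile normalization, cyclic loess, mean of probe sets, 2-fold and 3-fold thresholds, no filter, a filter at the 75th percentile (8.67) and an intensity trend in the fit.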

Additional observations from a re-analysis of the deposited data

Results flagged for a closer look

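Dusp10 differed between NR4A3 and control siRNA in opposite directions in the 2 states, by -0.19 with LPS and 0.02 without. It is listed for the opposite signs alone. The difference was not tested. After cyclic loess the second value was 0.00 with a negative sign.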

How the results depend on the processing

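No paired analysis was possible because each group has 1 array, and for the same reason no replicate could be left out. Under median centring, repeated quantile normalization, cyclic loess and the mean of probe sets, no difference of the 9 phosphatases between arrays moved by more than 0.14, and 2 of 45 changed sign (Dusp6 and Dusp10 between the siRNAs without LPS, after cyclic loess, both near 0). Dusp1 was lower with NR4A3 siRNA under LPS by the 1.5-fold rule after repeated quantile normalization and cyclic loess. At 3-fold, 1 phosphatase was higher with LPS under NR4A3 siRNA and 2 under control siRNA, 0 were lower with NR4A3 siRNA in either state, and 0 had a lower LPS effect. At 2-fold, 1 was lower with NR4A3 siRNA without LPS. With the filter at the 75th percentile, 3 were higher with LPS under control siRNA and 0 had a lower LPS effect, since Dusp4 and Dusp14 then drop out. In the additive fit 3 rose with LPS without a filter, and 3 with the filter at the 75th percentile. The other 98 counts of phosphatases were within 1.5 times the reported ones. Over all genes, the counts at 2-fold and 3-fold, in place of 1.5-fold, were 550 and 278 in place of 1070 higher and 281 and 80 in place of 712 lower with LPS under NR4A3 siRNA, and 517 and 260 in place of 1058 higher and 396 and 122 in place of 977 lower under control siRNA. With NR4A3 siRNA they were 48 and 7 in place of 381 higher and 171 and 44 in place of 483 lower under LPS, and 21 and 5 in place of 166 higher and 176 and 63 in place of 481 lower without it. For the difference of LPS effects they were 69 and 21 in place of 307 higher and 59 and 10 in place of 225 lower. The filter at the 75th percentile left 441 lower with LPS under NR4A3 siRNA and 579 under control siRNA, 230 higher with NR4A3 siRNA under LPS, 92 higher and 274 lower without it, and 185 higher and 134 lower for the difference of LPS effects, and 988 that fell with LPS in the fit in place of 1524. In the fit 210 genes rose and 379 fell with NR4A3 siRNA; without a filter 24 rose and 132 fell, after cyclic loess 50 and 217, after repeated quantile normalization 109 rose, and with the mean of probe sets 322 rose. The causes were not tested. Over the alternatives the adjusted p (limma) for LPS lay between 0.0364 and 0.121 for Dusp14, 0.0365 and 0.0659 for Dusp10, and 0.0165 and 0.0505 for Dusp5.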
